A study of Oryza sativa with 4 samples.

Results

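Nicotianamine synthesis, phytosiderophore synthesis and root iron uptake were followed through 7 named rice loci. The loci were chosen by identifier and by no rule on their measured values, though with earlier results of these data known. They were NAS1, NAS2, NAS3, NAAT1, DMAS1, IRT1 and FRO2, and they are 7 of the 31453 genes with a value in at least 1 library. All 7 had values in grain, and 6 had values in root, where NAS2 was not analysed here.

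Grasses release mugineic acid phytosiderophores from the root, which bind ferric iron in the soil and are taken up again as the iron complex. Synthesis starts from S-adenosylmethionine. Nicotianamine synthase joins S-adenosylmethionine units into nicotianamine, nicotianamine aminotransferase converts nicotianamine to a keto intermediate, and deoxymugineic acid synthase reduces that intermediate to deoxymugineic acid. Nicotianamine is also a metal chelator in its own right, and carries iron and zinc in the phloem and into the grain. Rice can in addition take up ferrous iron directly, through the IRT1 transporter, as other plants do after ferric-chelate reductases of the FRO family have reduced iron at the root surface.

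The study compared 2 tropical indica cultivars, Sharbati with 24.88 ppm and Lalat with 7.80 ppm of iron in brown rice. Plants were grown in pots of soil and manure in a net house, with no iron treatment named in the labels. Developing grain and root were taken 15 days after panicle emergence, and poly(A) RNA was sequenced in paired ends. The 4 groups (grain and root of each cultivar) had 1 library each, so no difference given here could be set against the spread between plants and none was tested.

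Levels are in FPKM, fragments scaled by transcript length and by library depth, as deposited by the authors. The number of sequenced fragments behind each FPKM value of these genes was recovered from the authors' p-values, and the 95% intervals given with levels and ratios are exact counting intervals on those fragments. They cover counting error only, and amplified fragments without molecular identifiers are not independent molecules. The libraries differed in depth. For the same transcript, 1 fragment in Lalat grain was worth 1.40 times the FPKM of 1 fragment in Sharbati grain, 1 fragment in Lalat root 1.92 times, and 1 fragment in Sharbati root 32.2 times. The Sharbati root library therefore resolved a transcript 16.8 times more coarsely than the Lalat root library. For genes with no less than 1 FPKM in each library of a pair, the median log2 ratio of Sharbati to Lalat was -0.29 in grain and -0.999 in root, and that of root to grain was 0.53 in Sharbati and 1.20 in Lalat. In whole organs, fewer cells of a type and less RNA per cell cannot be told apart.

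The organ labels were checked against marker genes. The 4 root markers, which include the silicon transporters Lsi1 and Lsi2, summed to 289 FPKM in Sharbati root and 137 FPKM in Lalat root. Of these, the 3 with grain values reached at most 0.490 FPKM in grain, and RCc3 was listed at 0 in Sharbati root. The 8 seed storage protein genes, which mark grain, summed to 35.9 FPKM in Sharbati root (0 to 15.0 FPKM, with the glutelin GluD1 at 0) and to 2865 FPKM in Lalat root (77.5 to 695 FPKM). GluD1 and SSA1, the 2 of these 8 with grain values, stood in Lalat root at 0.812% and 0.691% of their Lalat grain level. The part of these storage transcripts in the root values below was not tested.

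**Figure D1:**
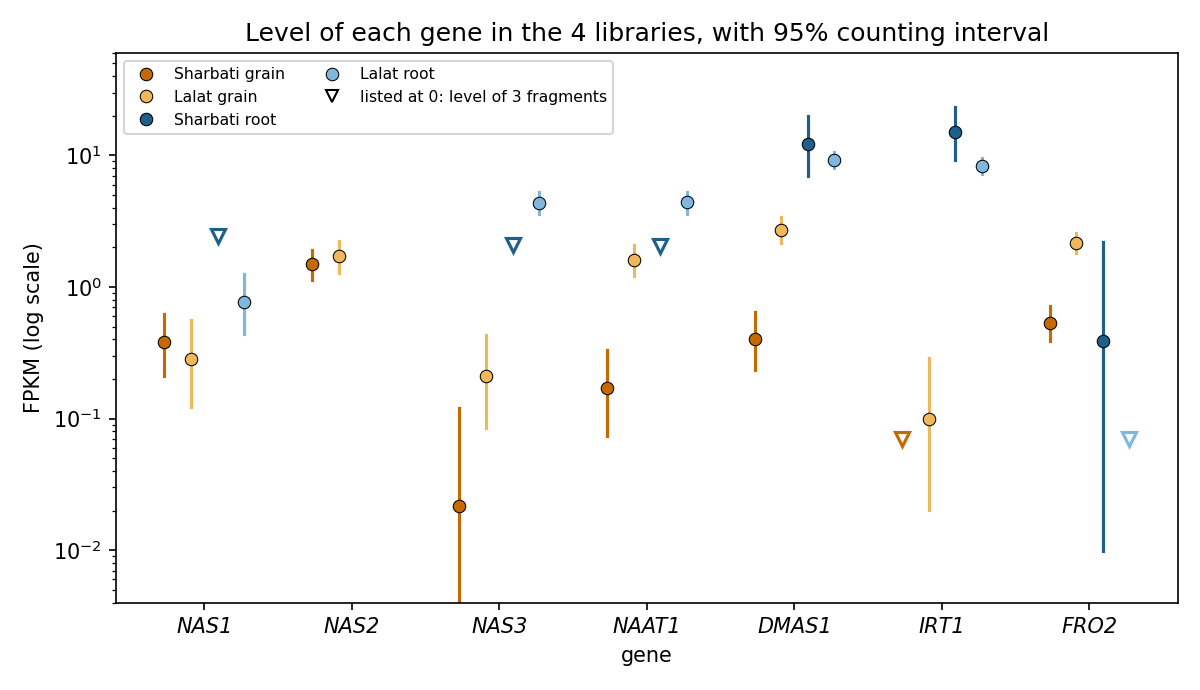
FPKM on a log axis for each gene in the 4 libraries. Circles are levels and vertical lines their 95% counting intervals; open triangles mark genes listed at 0, drawn at the level that 3 fragments would give, and NAS2 has grain values alone. DMAS1 and IRT1 have the highest levels in both root libraries, and NAAT1, DMAS1 and FRO2 lie lower in Sharbati grain than in Lalat grain.

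Nicotianamine synthases, the first step of the pathway, were low in grain of both cultivars. NAS1 (LOC_Os03g19427) and NAS2 (LOC_Os03g19420) are neighbours on chromosome 3, at 10929482 to 10930895 and at 10926468 to 10927950 in the coordinates of the deposited table, with 1531 bases between them. NAS3 (LOC_Os07g48980) lies on chromosome 7 at 29323093 to 29324723. The deposited table describes all 3 as nicotianamine synthases, and these are all the genes it describes so. NAS1 and NAS2 are known from rice as root genes induced by iron deficiency, whereas NAS3 responds differently and is known mainly from vascular tissue.

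NAS2 stood at 1.49 FPKM in Sharbati grain (62 fragments) and 1.71 FPKM in Lalat grain (51 fragments). It was the one synthase above 1 FPKM in grain, and its level exceeded that of 60.7% of the genes above 0 in Sharbati grain and 55.1% in Lalat grain. The ratio of Lalat to Sharbati was 1.15 (95% counting interval 0.778 to 1.69), so the libraries did not differ beyond counting error. Its log2 ratio of Sharbati to Lalat was -0.12, and 0.06 after the libraries were scaled to the same median ratio, which turns its sign.

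NAS1 was listed at 0.380 FPKM in Sharbati grain (15 fragments), 0.283 FPKM in Lalat grain (8 fragments), 0 in Sharbati root and 0.775 FPKM in Lalat root (16 fragments). The grain libraries again lay within counting error of each other, with a ratio of Sharbati to Lalat of 1.34 (0.534 to 3.65). NAS2 exceeded NAS1 in grain by 3.91 times in Sharbati and 6.04 times in Lalat. The 2 genes are close relatives, and how the authors' counting divided reads that match both is not stated, so the split between them is uncertain. At its Lalat root level, NAS1 would have given 0.953 fragments in Sharbati root, so a difference between the root libraries was not detectable at this depth.

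NAS3 was listed at 0.0215 FPKM in Sharbati grain (1 fragment), 0.211 FPKM in Lalat grain (7 fragments), 0 in Sharbati root and 4.37 FPKM in Lalat root (106 fragments). Lalat root held the highest listed level of the gene, above that of 43.2% of the genes above 0 there. It was 20.8 times (9.73 to 52.9) the level of Lalat grain, against a log2 offset between those libraries of 1.20. The log2 ratio was 2.15, and 1.26 after median scaling. In Sharbati root, 6.32 fragments would have been expected at the Lalat root level and none was counted. By counting error alone this puts the gene at least 2.11-fold lower there, against the 3 fragments per library that a count of 0 allows (2.08 FPKM). With the counting error of both libraries taken in, the 95% lower limit of that fold is 1.68. The median gene was itself lower in Sharbati root, at a log2 ratio of -0.999, and this limit does not set NAS3 apart from it. The grain ratio of Lalat to Sharbati, 9.79, rests on 1 fragment in Sharbati and has a counting interval from 1.26 to 441.

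NAAT1 and DMAS1 carry out the steps from nicotianamine to deoxymugineic acid, and both were lower in Sharbati grain than in Lalat grain. NAAT1 (LOC_Os02g20360, chromosome 2, 11997093 to 12002633) is described in the deposited table as a putative tyrosine aminotransferase. It stood at 0.170 FPKM in Sharbati grain (8 fragments), 1.60 FPKM in Lalat grain (54 fragments), 0 in Sharbati root and 4.39 FPKM in Lalat root (108 fragments). Lalat exceeded Sharbati in both organs.

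In grain the ratio of Lalat to Sharbati for NAAT1 was 9.44 (4.46 to 23.0). NAAT1 was the 1 of the 7 genes that the authors' deposited table calls different in grain, with a p-value of 0.00253; that table calls 3.89% of the 28339 grain genes. In root the table calls none of the 6 genes and 1.14% of the 25225 genes listed. NAAT1 had none of the 6.44 fragments in Sharbati root that its Lalat root level would give. By counting error alone it was thus at least 2.15-fold lower there, where a count of 0 again allows 3 fragments (2.05 FPKM). The 95% lower limit from both counts is 1.71, which does not set NAAT1 apart from the median log2 ratio of -0.999 in root. Lalat root exceeded Lalat grain by 2.74 times (1.96 to 3.88), against a log2 offset between those libraries of 1.20. After median scaling that log2 ratio fell from 1.05 to 0.16.

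A 0 in Sharbati root was common for genes at such levels. Among genes above 0 in only one of the grain libraries, for which the fragment number could be recovered without the root values, 78 of the 119 whose Lalat root level would give 5 to 8 fragments in Sharbati root were listed at 0 there, or 65.5%. For 1 to 2 predicted fragments the share was 84.3% of 312 genes, and for 10 to 20 it was 35.8% of 151. The zeros of NAS3 and NAAT1 thus stand in a library where most of these genes of like level were also listed at 0. The minimum folds given for these 2 genes hold only if a 0 arises by counting error alone, which was not tested.

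DMAS1 (LOC_Os03g13390, chromosome 3, 7228963 to 7231749), deposited as an aldo/keto reductase family oxidoreductase, was the one gene of the 7 above 0 in all 4 libraries. It stood at 0.404 FPKM in Sharbati grain (17 fragments), 2.73 FPKM in Lalat grain (82 fragments), 12.2 FPKM in Sharbati root (16 fragments) and 9.21 FPKM in Lalat root (202 fragments). Sharbati grain was the low library, and the root libraries were both above either grain library.

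The grain ratio of Lalat to Sharbati for DMAS1 was 6.74 (3.97 to 12.1), with a p-value of 0.0042 and no call in the authors' deposited table. In root the order was the other way, with a ratio of Sharbati to Lalat of 1.33 (0.745 to 2.21), which does not exceed counting error. The log2 ratio of Sharbati to Lalat in root was 0.38 as deposited and 1.32 after median scaling. Root exceeded grain by 30.3 times (14.3 to 63.7) in Sharbati and by 3.38 times (2.60 to 4.42) in Lalat. Grain and root tables were normalized separately by the authors, so each ratio between organs sets levels side by side.

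DMAS1 lay above NAAT1 wherever both were detected. The level of DMAS1 was 2.38 times that of NAAT1 in Sharbati grain, 1.70 times in Lalat grain and 2.10 times in Lalat root. In Sharbati root DMAS1 was present with 16 fragments while NAAT1 was at 0. Among the 12912 genes above 0 in all 4 libraries, the nearest profiles to DMAS1, by the largest difference in log2(FPKM + 1) over the 4 libraries, were those of the short-chain dehydrogenase/reductase LOC_Os07g48640 (0.17) and the ribosomal protein L28 gene LOC_Os05g01110 (0.24).

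**Figure D2:**
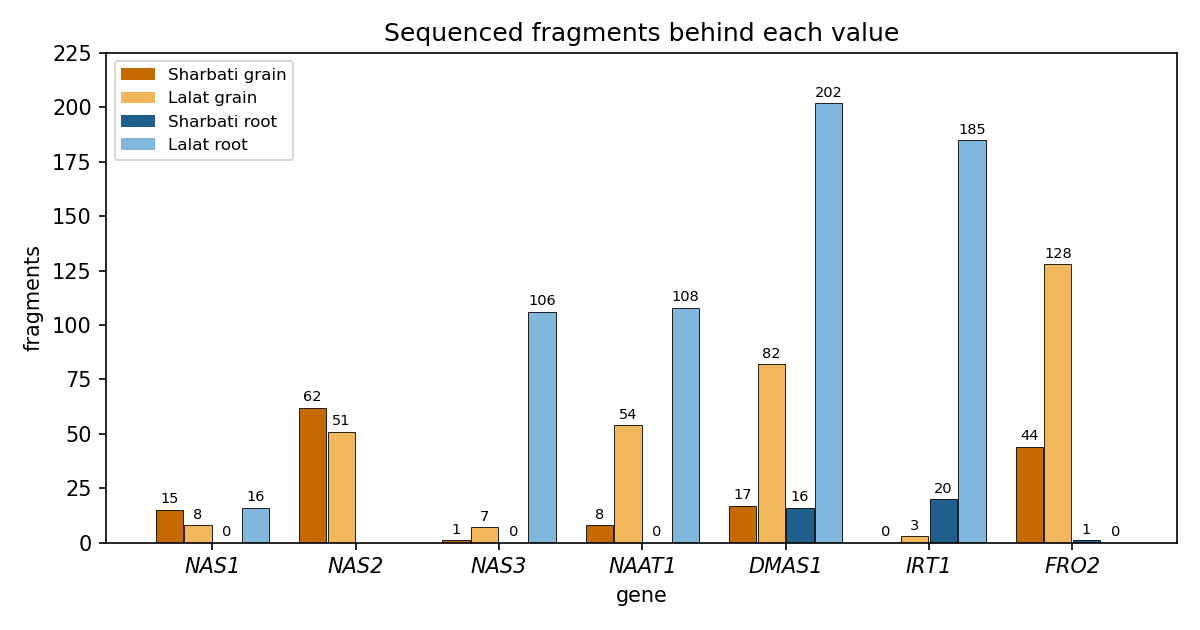
Number of sequenced fragments behind each level, by gene and library; each bar is 1 library and its number stands above it. Sharbati root gave 20 fragments for IRT1, 16 for DMAS1, 1 for FRO2 and 0 for NAS1, NAS3 and NAAT1, whereas Lalat root gave 106 or more for NAS3, NAAT1, DMAS1 and IRT1.

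IRT1, the ferrous iron transporter of the root surface, had nearly all of its signal in root. The locus (LOC_Os03g46470, chromosome 3, 26283113 to 26292023) is deposited as a metal cation transporter. It was listed at 0 in Sharbati grain, 0.0985 FPKM in Lalat grain (3 fragments), 15.0 FPKM in Sharbati root (19.8, taken as 20 fragments) and 8.34 FPKM in Lalat root (185 fragments). Its level was above that of 70.9% of the genes above 0 in Sharbati root, and in Lalat root above 54.7% of them.

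The root ratio of Sharbati to Lalat for IRT1 was 1.79 (1.08 to 2.88). The interval lies just above 1 and carries counting error alone, and the authors' deposited table gives this pair a p-value of 0.509 and no call. On the log2 scale the ratio was 0.77 as deposited and 1.73 after median scaling. Root exceeded grain by at least 212-fold in Sharbati, against the 3 fragments that a count of 0 in the grain library allows (95% lower limit from both counts 158.8), and by 84.7 times (28.5 to 414) in Lalat. In both grain libraries IRT1 was at or under 3 fragments, so no fold between them is given.

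FRO2 (LOC_Os04g36720, chromosome 4, 22182598 to 22186943), deposited as a ferric-chelate reductase, had its highest level in Lalat grain. It stood at 0.535 FPKM in Sharbati grain (44 fragments), 2.18 FPKM in Lalat grain (128 fragments), 0.391 FPKM in Sharbati root (1 fragment) and 0 in Lalat root. Both grain libraries had more fragments than either root library, and Lalat root had none. At its Sharbati grain level, however, FRO2 would have given only 1.37 fragments in Sharbati root.

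The grain ratio of Lalat to Sharbati for FRO2 was 4.07 (2.87 to 5.87), and the authors' deposited table gives a p-value of 0.018 without a call. In Lalat, where 1 fragment in root is worth 0.0233 FPKM of this gene, root was at least 31.1-fold lower than grain, against 3 fragments (0.0699 FPKM), with a 95% lower limit of 24.9 from both counts. At the grain level 93.4 fragments would have been seen in Lalat root. In Sharbati the single root fragment gives a root to grain ratio of 0.731 with a counting interval from 0.0181 to 4.29, so the organs cannot be ordered. The authors' separate lists of transcripts outside the annotation hold overlapping models in both grain libraries, at 0.441 FPKM in Lalat (22182586 to 22186943) and 0.245 FPKM in Sharbati (22185461 to 22186943). The authors give ferric reduction oxidase 7, chloroplastic, as their protein match. A like model overlaps DMAS1 in Lalat root (7228964 to 7231550, 5.83 FPKM). Whether fragments of these models were also counted for the named genes was not tested.

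Set side by side within a library, the order of levels differed between organs. In Lalat root DMAS1 (9.21 FPKM, 7.98 to 10.6) and IRT1 (8.34 FPKM, 7.17 to 9.62) had overlapping intervals, as did NAAT1 (4.39 FPKM, 3.60 to 5.30) and NAS3 (4.37 FPKM, 3.58 to 5.29), with NAS1 below them. In Lalat grain DMAS1 (2.17 to 3.38 FPKM), FRO2 (1.82 to 2.59 FPKM) and NAS2 (1.27 to 2.25 FPKM) overlapped in turn, NAAT1 (1.20 to 2.09 FPKM) overlapped FRO2 and NAS2, and NAS1, NAS3 and IRT1 were all under 0.3 FPKM by point estimate. In Sharbati grain NAS2 (1.14 to 1.90 FPKM) stood above all the others, the intervals of FRO2, DMAS1 and NAS1 overlapped, and that of NAAT1 (0.0732 to 0.334 FPKM) overlapped those of DMAS1 and NAS1 but not that of FRO2. By point estimate NAS2 was thus the highest of the 7 in Sharbati grain and DMAS1 in Lalat grain.

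For counts over the genes, a gene was compared if neither library had it at 0 and one or both had 1 FPKM of it, and it was counted as apart at 2-fold or more of FPKM + 1. In grain 4 of the 7 genes were compared. None was higher in Sharbati, where 6.31% of the 13417 genes compared were, and 3 (NAAT1, DMAS1 and FRO2) were lower, as were 17.4% of all. All 3 were under 1 FPKM in Sharbati grain and were compared only through their Lalat level, so they had to be lower in Sharbati, and the count adds nothing to their values. Their log2 ratios were -1.15, -1.41 and -1.05, and after median scaling, which turns the overall split to 9.87% higher and 12% lower, they were -1.11, -1.32 and -0.94, so that FRO2 was no longer 2-fold apart.

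In root only DMAS1 and IRT1 could be compared, and neither was 2-fold apart, against 5.51% higher and 46.7% lower in Sharbati among the 13653 genes compared. After median scaling the overall split was 17.2% higher and 21.2% lower, and both genes were then more than 2-fold higher in Sharbati root. Whether they count as apart in root therefore depends on the scaling, though the sign of their ratios does not. For DMAS1 the counting interval of the plain ratio (0.745 to 2.21) includes 1, so its direction is not fixed.

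Between organs, 1 gene (DMAS1) was compared in Sharbati and it was higher in root, as were 51% of 12648 genes, with 14% lower. DMAS1 was under 1 FPKM in Sharbati grain and was compared only through root, so it had to be higher there. In Lalat all 4 compared (NAS3, NAAT1, DMAS1 and IRT1) were higher in root, as were 59.7% of 17533 genes, with 7.11% lower. NAS3 and IRT1 were under 1 FPKM in Lalat grain and likewise had to be higher in root. After median scaling the overall split in Lalat was 31.8% higher and 15.4% lower, and NAAT1 (0.16) and DMAS1 (0.42) were no longer 2-fold apart. In Sharbati the scaled split was 39.9% higher and 19.1% lower, and DMAS1 was still 2-fold higher (2.76).

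**Figure D3:**
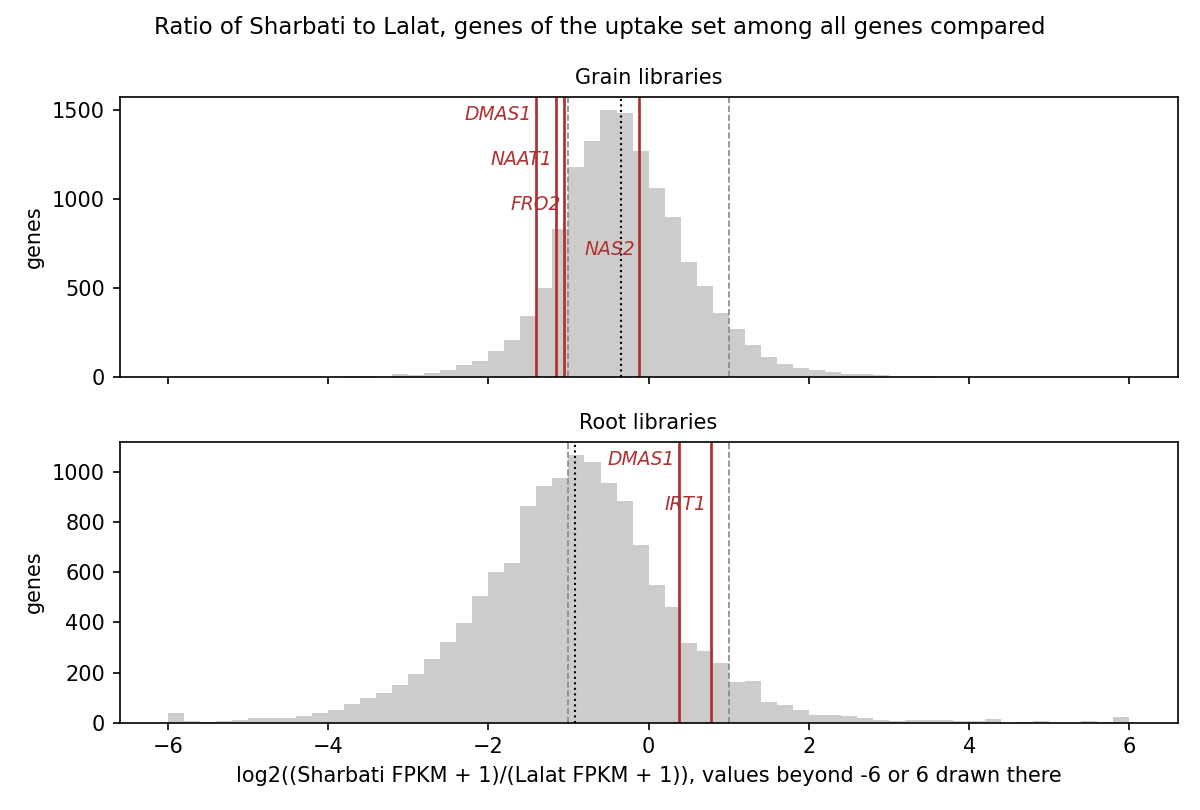
Histograms of log2((Sharbati FPKM + 1)/(Lalat FPKM + 1)) over the 13417 genes compared in grain (top) and the 13653 compared in root (bottom), with the number of genes on the vertical axis. Red lines mark the named genes that could be compared, dotted lines the median of all genes and dashed lines 2-fold. In grain DMAS1, NAAT1 and FRO2 lie left of the 2-fold line and NAS2 near 0; in root DMAS1 and IRT1 lie right of 0 while the median of all genes is -0.92.

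The substrate supply of nicotianamine synthase was described through 20 genes of the methionine cycle, taken by words in the deposited descriptions. These enzymes make S-adenosylmethionine and recycle the methylthioadenosine that nicotianamine synthase leaves behind. In grain 16 were compared, of which 9 were 2-fold or more lower in Sharbati and none higher, where 17.4% of all genes were lower and 6.31% higher. The median log2 ratio was -1.28 beside -0.35 over all genes compared. After median scaling 8 were lower and 1 higher, with a median of -1.01, where 12% of all genes were lower and 9.87% higher. Of the 9, 4 were under 1 FPKM in Sharbati grain and so had to be lower to be compared.

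The largest grain differences in this list were in salvage and methionine regeneration. The homocysteine S-methyltransferase LOC_Os03g12110, which makes methionine from homocysteine, stood at 1.57 FPKM in Sharbati grain and 23.9 FPKM in Lalat grain. The methylthioribose kinases LOC_Os04g57400 and LOC_Os04g57410, which act on the recycled by-product, had 0.538 and 0.536 FPKM in Sharbati grain, against 11.7 and 7.96 FPKM in Lalat grain. These were the 3 of the 17 genes of the list with grain values that the authors' deposited table calls in grain, where it calls 3.89% of all. All 3 were lower in Sharbati, with p-values in that table of 4.11e-07, 1.46e-07 and 1.76e-05 in that order.

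Of the 3 S-adenosylmethionine synthetases with grain values, which make the substrate itself, 2 were far more abundant than these. LOC_Os01g22010 stood at 51.7 FPKM in Sharbati grain and 151.5 FPKM in Lalat grain, and LOC_Os05g04510 at 37.4 and 100.1 FPKM. The other synthetase, LOC_Os01g18860, was low, at 0.652 FPKM in Sharbati grain and 1.67 FPKM in Lalat grain. Another homocysteine S-methyltransferase, LOC_Os12g41390, ran the other way, at 285.6 FPKM in Sharbati grain and 169.96 FPKM in Lalat grain, short of 2-fold. The list as a whole was thus not of 1 direction in grain.

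In root 13 genes of the methionine cycle were compared, with 6 lower in Sharbati and none higher, a share close to the 46.7% lower among all genes, and a median log2 ratio of -0.43, above the -0.92 of all genes compared. After median scaling 1 (LOC_Os10g28350) was lower and 2 higher, with a median of 0.46, where 21.2% of all genes were lower and 17.2% higher. The dihydroxyketomethylthiopentene dioxygenase LOC_Os10g28350, which acts late in the salvage of the by-product, stood at 10.4 FPKM in Sharbati root and 173 FPKM in Lalat root. The synthetases LOC_Os05g04510 (2634 and 2130 FPKM) and LOC_Os01g22010 (701 and 878 FPKM) were within 2-fold between the root libraries. Root exceeded grain 2-fold or more for 12 of 14 genes in Sharbati, with 2 lower, where 51% of all genes were higher; 5 of the 12 were under 1 FPKM in grain and so had to be higher. In Lalat 11 of 16 were higher in root and 1 lower, where 59.7% of all genes were higher. After median scaling 6 were higher and 2 lower, near the 31.8% higher and 15.4% lower of all genes.

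**Figure D4:**
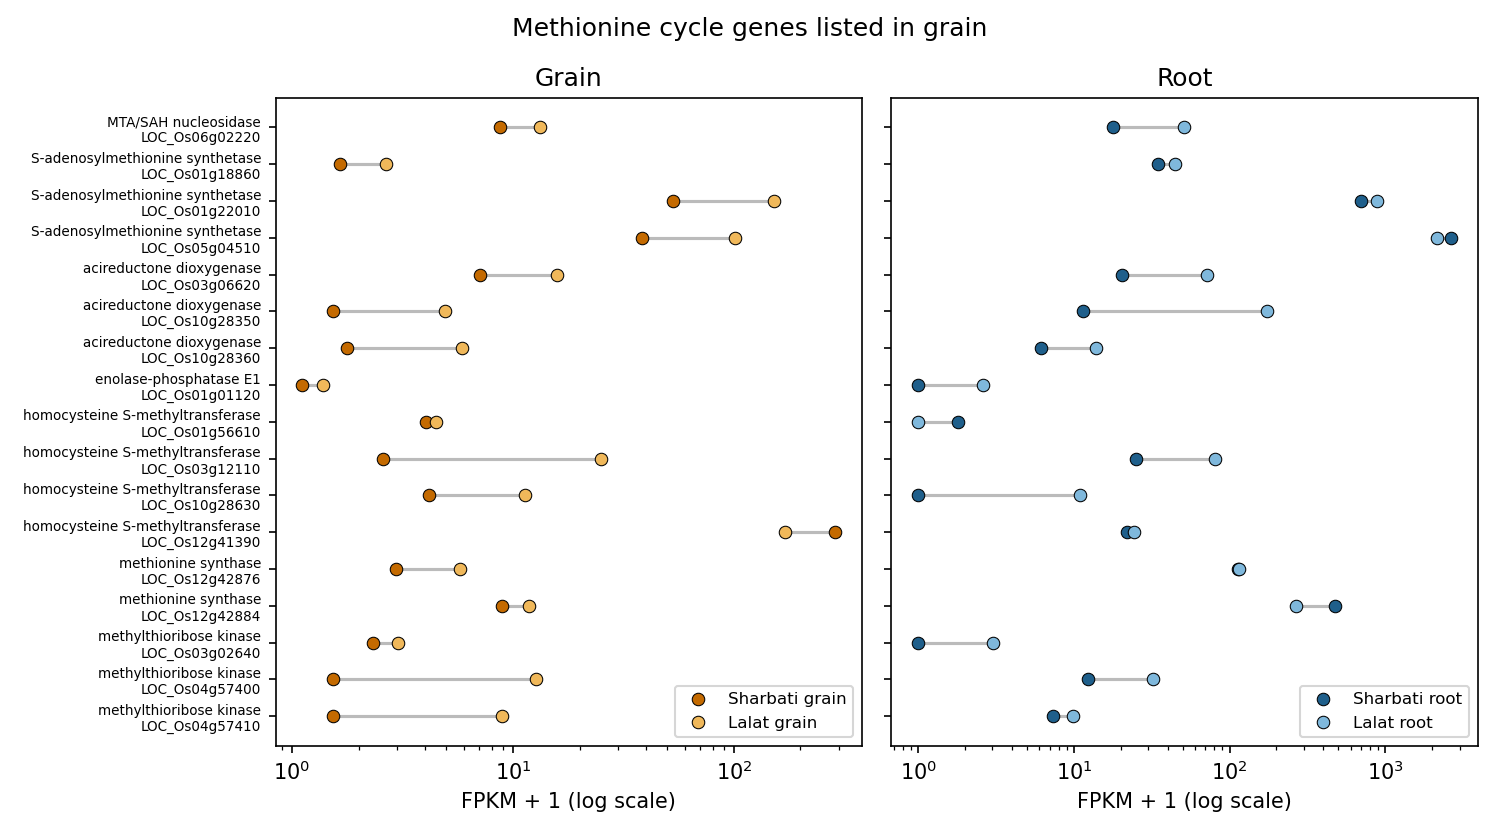
FPKM + 1 on a log axis for the 17 methionine cycle genes listed in grain, in the grain libraries (left) and root libraries (right), with a grey line joining Sharbati and Lalat for each gene. In grain the Lalat point lies to the right for all of these genes but LOC_Os12g41390; in root the points are of mixed order, and a value of 1 marks a gene listed at 0.

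Other genes of iron uptake were taken from a list of 16 transporters and regulators. YSL2 was dropped because the deposited description of its locus names a transposon protein, and of the remaining 15, 13 had a value; YSL15 and FRO1 were not analysed here. The authors' deposited table calls none of them in either organ.

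Transporters of the list were low. NRAMP5, the main manganese transporter of rice root, stood at 2.45 FPKM in Lalat root (83 fragments) and 0 in Sharbati root, where 4.95 fragments would be expected at that level. The deoxymugineic acid efflux transporter TOM1 stood at 0.707 FPKM in Lalat root (20 fragments) and 0 in Sharbati root, with 1.19 expected. NRAMP1 was listed at 0.644 FPKM in Sharbati grain, 0.166 FPKM in Lalat grain, 0 in Sharbati root and 1.68 FPKM in Lalat root. IRT2 reached 0.0917 FPKM in Lalat root and 0 in Sharbati root. The nicotianamine exporter ENA1 stood at 0.753 and 0.642 FPKM in Sharbati and Lalat grain.

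Among regulators that act on these genes under iron deficiency, IRO2 and bHLH156 are known as activators of the phytosiderophore genes. IRO2 was at 0 in Sharbati grain, 0.0270 FPKM in Lalat grain, 4.30 FPKM in Sharbati root and 16.4 FPKM in Lalat root. Its partner bHLH156 was at 0 in Sharbati root and 5.94 FPKM in Lalat root (121 fragments), a level at which 7.21 fragments would be expected in Sharbati root. Both were thus lower in Sharbati root than in Lalat root as deposited, where 46.7% of all genes compared were 2-fold or more lower. After median scaling no gene of this list that could be compared, IRO2 included, was 2-fold lower, where 21.2% of all genes were. At 5 to 8 predicted fragments, as for bHLH156, 65.5% of the 119 genes counted above were also listed at 0. Whether these regulators and the 7 genes vary together was not tested.

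IDEF1 and IDEF2, which bind iron-deficiency elements of these promoters, had 36.6 and 112 FPKM in Sharbati root, below the 92.9 and 254 FPKM of Lalat root. The repressor IRO3 stood at 15.2 FPKM in Sharbati root and 30.2 FPKM in Lalat root. The ubiquitin ligases HRZ1 and HRZ2, which restrain the response, stood at 4.03 and 3.92 FPKM in Sharbati root and 11.1 and 14.1 FPKM in Lalat root. PRI1, a target of HRZ1, was near equal at 131 and 119 FPKM.

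In grain PRI1 (35.3 FPKM in Sharbati and 10.5 FPKM in Lalat) and HRZ2 (10.8 and 4.41 FPKM) were the 2 of 6 compared that were 2-fold or more higher in Sharbati. None was lower, where 6.31% of all genes were higher and 17.4% lower. The list's median log2 ratio in grain was -0.06, beside -0.35 over all genes. In root 5 of 7 compared were 2-fold or more lower in Sharbati and none higher, where 46.7% of all genes were lower and 5.51% higher. The median was -1.27 beside -0.92. After median scaling none was lower and 1 was higher, with a median of -0.34, where 21.2% of all genes were lower and 17.2% higher. Root exceeded grain for 3 of 6 in Sharbati, with 1 lower, which is near the 51% of all genes. In Lalat 7 of 8 were higher in root and none lower, where 59.7% of all genes were higher. Of the 7, 2 were under 1 FPKM in grain and so had to be higher. After median scaling 3 were higher and none lower, where 31.8% of all genes were higher and 15.4% lower.

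The wider gene families of these loci were taken by words in the descriptions and include the named genes. Of 11 aldo/keto reductases compared in grain, 3 were lower in Sharbati and none higher (median log2 ratio -0.77), where 17.4% of all genes were lower and 6.31% higher. Of these 3, 2 were under 1 FPKM in Sharbati and so had to be lower, and 1 was left with a filter of 5 FPKM. In root 5 of 11 were lower and 4 higher, beside 46.7% and 5.51% of all genes. Of these, 1 of the 5 and 2 of the 4 were under 1 FPKM in the lower library. After median scaling 3 were lower and 5 higher, beside 21.2% and 17.2% of all genes. The family member LOC_Os04g26920 stood at 7.19 FPKM in Sharbati root and 0.307 FPKM in Lalat root, and LOC_Os04g26910 at 11.7 and 51.02 FPKM. Of 38 aminotransferases compared in grain, 11 were lower in Sharbati and 1 higher (median -0.51), beside the same 17.4% and 6.31% of all genes. Of the 11, 4 were under 1 FPKM in Sharbati and so had to be lower, and 6 were left with a filter of 5 FPKM. After median scaling 10 were lower and 4 higher, beside 12% and 9.87% of all genes. The authors' deposited table calls 6 of the 56 listed, 5 of them lower, where it calls 3.89% of all genes. The difference of LOC_Os08g10510, at 2.18 FPKM in Sharbati grain and 26.9 FPKM in Lalat grain, was the largest of these, and LOC_Os05g15530 ran the other way at 13.9 and 1.67 FPKM.

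Of the metal cation transporters that share a family with IRT1, 7 were compared in grain and none was 2-fold apart in FPKM + 1. Among all genes 17.4% were lower in Sharbati and 6.31% higher. All 7 were lower in Sharbati, with a median of -0.73 beside -0.35 over all genes. LOC_Os03g29850, LOC_Os05g10940, LOC_Os06g37010 and LOC_Os08g10630 were under 1 FPKM in Sharbati grain (0.306, 0.267, 0.327 and 0.810 FPKM). They were compared only through their Lalat level and so had to be lower. In plain FPKM several were more than 2-fold lower, such as LOC_Os05g10940, one of those that had to be lower. It stood at 0.267 FPKM in Sharbati grain and 1.10 FPKM in Lalat grain. In root 4 of 9 were lower in Sharbati and none higher, a share close to the 46.7% of all genes lower (median -0.92, the same as over all genes). LOC_Os05g25194 stood at 4.87 FPKM in Sharbati root and 37.1 FPKM in Lalat root, and LOC_Os08g36420 at 1.67 and 17.8 FPKM. The other ferric reductase above 1 FPKM, LOC_Os09g26660, stood at 11.1 FPKM in Sharbati grain, 3.05 FPKM in Lalat grain, 0.591 FPKM in Sharbati root and 7.998 FPKM in Lalat root. Its order in grain was opposite to that of FRO2.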

How the data were processed

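Values are FPKM as deposited by the authors, with grain and root tables made separately; per the submitters' processing notes the tools included TopHat 1.3.3 with Bowtie 0.12.9, and Cuffdiff with Cufflinks 1.3.0. No source used here names the genome build. The p-value and yes or no call of each pair are the authors' deposited ones, made, per the labels, at a false discovery rate of 0.05; they compare 2 libraries, not 2 cultivars.

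Distinct values of a gene were summed. Ratios are log2((a + 1)/(b + 1)), where 1 is the pseudocount. With 1 library per group no test was made and no paired fit exists. Folds given as such are plain FPKM ratios. Where a library is at 0, the deposited p-value of the pair depends only on the fragment number of the other library, and where both are above 0 on both numbers. This gave whole fragments per gene (Python 3.11.15, SciPy 1.17.1), was tested on simulated data, and for genes at 0 in the other library numbered 11.1% of those above 0 in Sharbati root, where 1 to 3 fragments share the same p-value, and 66.6% to 73.1% in the other libraries. It returned the deposited p-values within 1% for 3568 of 3942 grain genes and 147 of 155 root genes whose fragment numbers came from the other organ. The fragment number of IRT1 in Sharbati root is less certain, since the p-value computed from it differs by 8.21% from the deposited one.

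The genes and lists were chosen with earlier results of these data known. The rule for naming took all 7 genes, genes of the uptake list at 1 FPKM or more, and up to 4 genes of each other list per pair, with the largest ratio at 5 FPKM or more; some of these are given by count only. TOM1, IRT2, ENA1 and LOC_Os12g41390 fall outside it and were added after their values were seen. RefSeq symbols could not be paired with these loci, so no sequence is given.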

Additional observations from a re-analysis of the deposited data

Results flagged for a closer look

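For 4 genes the log2 ratio of Sharbati to Lalat had opposite signs in grain and root; whether the organs differ was not tested, since each ratio compares 1 library with 1. DMAS1 was at -1.41 in grain and 0.38 in root. FRO2 was at -1.05 in grain and 0.48 in root, the latter from 1 fragment against none, which fixes no direction either. IRT1 was at -0.14 in grain, from 3 fragments against none, which is within what a count of 0 allows and fixes no direction, and at 0.77 in root. NAS1 was at 0.11 in grain and -0.83 in root, where Sharbati is listed at 0 and under 1 fragment would be expected at the Lalat level. DMAS1 is the one of the 4 with 16 or more fragments in every library. Its root ratio of Sharbati to Lalat, 1.33 (0.745 to 2.21), still does not exceed counting error, so its direction in root is not fixed. The same holds for the grain ratio of NAS1, 1.34 (0.534 to 3.65).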

How the results depend on the processing

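Of 82 alternative values for single genes, 81 kept their sign. The exception was NAS2 in grain, which went from -0.12 to 0.06 under median-ratio scaling. Most of these values could not turn, since a changed pseudocount or filter leaves the sign of a ratio as it was. The highest transcript alone gave the same values. Only the scalings could turn a sign, so the count of 81 says little about stability. Counts at 2-fold moved more. In grain, the 3 genes lower in Sharbati became 0 with a pseudocount of 5, 0 at 4-fold and 2 under median-ratio scaling, where FRO2 lost its call at -0.94; no gene reached a filter of 5 FPKM. In root, 0 higher became 2 under median-ratio scaling and 2 with equal totals without the 100 highest genes, and 0 lower became 2 with genes at 0 in a library admitted. Between organs in Sharbati, admitting such genes gave 2 higher in root in place of 1 and 1 lower in place of 0. In Lalat, the 4 higher in root became 1 with a pseudocount of 5 and 2 under either scaling, at 5 FPKM or at 4-fold, and 0 lower became 2 with genes at 0 admitted. For the methionine cycle in grain, 0 higher became 1 under median-ratio scaling. The cause of these moves was not tested. No paired analysis was possible because each group holds 1 library, which also leaves no replicate to omit. Depth limits Sharbati root most: 1 fragment there is worth 0.391 to 0.813 FPKM for these genes.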
